A study of Mus musculus with 12 samples.

Results

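Expression of 9 genes of the Hedgehog pathway was followed through the perinatal growth of the mouse lung: the receptor genes Ptch1 and Smo, the ligand-binding feedback gene Hhip, the transcription factor genes Gli1, Gli2 and Gli3, and the co-receptor genes Gas1, Cdon and Boc. They were taken by symbol from a table of 28004 genes, and 9 of 9 were in it. All 9 also passed the filter on low values that left 16827 genes for testing. Each library was made from mouse lung cells sorted for 2 fluorescent reporters at once, Pdgfra-GFP and Acta2-dsRed. The first reports a gene for a receptor of platelet-derived growth factors, the second the gene for smooth muscle alpha-actin. There were 3 libraries from embryos at E17.5, named by the embryonic day, and 3 each from pups at postnatal days 3, 7 and 10 (P3, P7 and P10), all with both reporters and no other treatment or allele in the labels. The labels say neither how the reporters were built nor whether a library pools animals. P-values therefore measure the spread between these libraries, which may be technical.

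In the lung, Hedgehog ligands come mainly from the epithelium and act on the mesenchyme beneath it. Without ligand, the receptor PTCH1 holds the transducer SMO inactive, and GLI3 and GLI2 are processed into forms that hold target genes down. Ligand binding to PTCH1, helped by the co-receptors GAS1, CDON and BOC, releases SMO at the primary cilium, after which full-length GLI proteins act on target genes. Gli1, Ptch1 and Hhip are themselves target genes, and PTCH1 and HHIP bind ligand, so both feed back on the signal. Hhip is also known as a marker of lung myofibroblasts and airway smooth muscle.

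The deposited values are estimated counts, given here as CPM (counts scaled to a common library total) after scaling between libraries with the trimmed mean of M-values (TMM). They summed to between 13328600 and 18740600 per library, and 20234 to 21235 genes were above 0. The TMM factors were less even, from 0.589 in E17.5 replicate 2 to 1.48 in P10 replicate 3. The CPM of these 2 libraries thus depend most on that scaling. The values look scaled by transcript length. Of 599 genes with median transcripts up to 120 nt, 0 had a value of 1 in any library, against 36.5% of 7304 genes with transcripts of 1500 to 3000 nt. Levels of different genes are set side by side on that per-length scale and only as far as it holds. The sorted population carried its defining markers, with Acta2 at 487 to 1025 CPM and Pdgfra at 179 to 346 CPM as stage means. Both sort markers moved across birth themselves: from E17.5 to P3 Pdgfra fell (log2 fold change -0.95, edgeR adjusted p = 0.00430) and Acta2 rose (1.06, adjusted p = 0.0183), the Acta2 call ending without E17.5 replicate 1, E17.5 replicate 2 or P3 replicate 3 (adjusted p up to 0.0756). They changed over the same step as Hhip, Boc and Gli3, and their part in those results was not tested. Spearman correlations within a stage ran from 0.938 to 0.961. E17.5 replicate 1 stood apart: the summed level of 8 alveolar fibroblast markers was 1366 CPM there, against 231 and 311 CPM in the others of that stage. Log2 fold changes from E17.5 are given with and without that library for Ptch1, Gli2 and Scube2. Other genes are mostly given with it only, and their values can move without it as well. From E17.5 to P3, Pdgfra had -1.10 and Acta2 0.86 without that library. P10 replicate 1 also stood apart. The airway epithelial marker Scgb1a1 was 7.72 CPM there and 87.6 and 110 CPM in P10 replicates 2 and 3. The endothelial marker Pecam1 was 1.72, 12.1 and 15.1 CPM. P10 replicate 1 held the lowest values of Boc, Gas1 and Cdon, and the part of this difference in their P10 levels was not tested. Because these are bulk libraries, fewer cells of a type and less RNA per cell cannot be told apart for any gene below.

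The promoters of Hhip and Ptch1 are shown first, because both are feedback targets of the pathway and their transcripts went separate ways. The sequences are the 250 bases before the RefSeq start sites on GRCm38.p6, minus strand, read 5′ to 3′, with CG dinucleotides in capitals. The Hhip window is chr8:80058009-80058258 and the Ptch1 window is chr13:63565736-63565985. The Ptch1 window lies inside the annotated gene, which has 10 transcripts and ends at 63573598. It thus belongs to an internal start site.
Hhip: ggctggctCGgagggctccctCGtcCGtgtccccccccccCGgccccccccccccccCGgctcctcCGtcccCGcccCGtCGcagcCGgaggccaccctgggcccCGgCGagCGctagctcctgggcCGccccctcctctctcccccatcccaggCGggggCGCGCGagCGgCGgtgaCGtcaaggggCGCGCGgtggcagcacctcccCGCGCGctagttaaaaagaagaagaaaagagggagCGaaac
Ptch1: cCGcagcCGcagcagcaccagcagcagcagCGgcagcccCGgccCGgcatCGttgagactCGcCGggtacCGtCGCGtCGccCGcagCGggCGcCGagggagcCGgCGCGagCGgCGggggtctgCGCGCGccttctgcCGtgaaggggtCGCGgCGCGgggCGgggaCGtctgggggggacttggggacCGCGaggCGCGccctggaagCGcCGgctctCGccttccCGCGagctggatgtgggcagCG
The Hhip window held 28 CG dinucleotides and the Ptch1 window 41, against a median of 6 over 32851 RefSeq windows of that length. GC content was 76.0% and 78.4%. The GLI-binding sequence GACCACCCA was searched on both strands of the wider windows, from 250 bases before to 50 after the start. RefSeq windows were matched for 7 of the 9 members, without Gli1 and Boc. The Cdon window, from 35451826, also lies inside its annotated gene, which starts at 35421128. So does the Gli3 window, from 15463473, in a gene that starts at 15463235. None of the 7 held GACCACCCA, which occurs in 0.253% of all windows, or its shorter core CCACCCA, which occurs in 9.30%. The absence says only that these letters are not in these windows.

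Hhip was the most abundant member before birth and fell most. It lies on chromosome 8 (79965851 to 80058006, minus strand, GRCm38) and encodes a membrane-anchored and secreted protein that sequesters Hedgehog ligands. At E17.5 its level was 483, 751 and 593 CPM in replicates 1, 2 and 3. At P3 it was 98.3, 93.0 and 116 CPM. Every postnatal library was below every E17.5 library. At P7 the values were 105, 104 and 102 CPM, and at P10 they were 99.3, 109 and 130 CPM. The 3 postnatal stages overlapped one another, so the order E17.5 above P10, P7 and P3 is set beyond the spread only between E17.5 and the rest. Stage means were 609 ± 135, 102 ± 11.8, 103 ± 1.46 and 113 ± 15.5 CPM from E17.5 to P10 (SD, n = 3), a 5.95-fold range. Across birth, P3 against E17.5, Hhip fell by 2.57 on the log2 scale (SE 0.17), and edgeR's quasi-likelihood test with Benjamini-Hochberg adjustment gave adjusted p = 1.25e-05. The later steps were small, with a log2 difference of 0.02 between P3 and P7 (SE 0.16, adjusted p = 0.983) and 0.13 between P7 and P10 (SE 0.16, adjusted p = 0.717). Over the alternatives run, the log2 fold change from E17.5 to P3 lay between -2.71 and -2.38.

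Ptch1, which encodes the ligand receptor (chromosome 13, 63508328 to 63573598, minus strand), did not follow Hhip. Its E17.5 libraries were widely spread, at 96.1, 124 and 152 CPM. The P3 libraries were close together at 104, 99.6 and 102 CPM, inside the E17.5 range. At P7 the values were 148, 125 and 143 CPM, all above the P3 libraries. At P10 they were 93.6, 87.7 and 95.3 CPM, below every library of P3 and P7 and below every E17.5 library. Stage means were 124 ± 28.2, 102 ± 2.42, 139 ± 12.1 and 92.2 ± 3.99 CPM, and the highest mean was 1.503 times the lowest. Over the 4 stages Ptch1 differed (edgeR, adjusted p = 0.0295), but no difference between 2 stages passed in edgeR with all libraries. The closest was P10 against P7, with a log2 difference of -0.59 (SE 0.14, adjusted p = 0.0512). That comparison passed in DESeq2 (adjusted p = 0.00375), in limma-voom (0.0433), with only the 6 libraries compared (0.0382), and without E17.5 replicate 1 or 3 (lowest 0.0200). The call over the 4 stages ended without any one of 9 libraries, namely E17.5 replicate 2, all 3 of P3, P7 replicates 1 and 3 and all 3 of P10, with adjusted p up to 0.0909. Without E17.5 replicate 1 the fall from E17.5 to P3 passed at -0.44 (adjusted p = 0.0214), against -0.28 (SE 0.14, adjusted p = 0.178) with all libraries. The difference from E17.5 to P10 was -0.43 (SE 0.14, adjusted p = 0.0625), and passed in DESeq2 (adjusted p = 0.0307) and without E17.5 replicate 1 (-0.59, edgeR adjusted p = 0.00666).

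**Figure D1:**
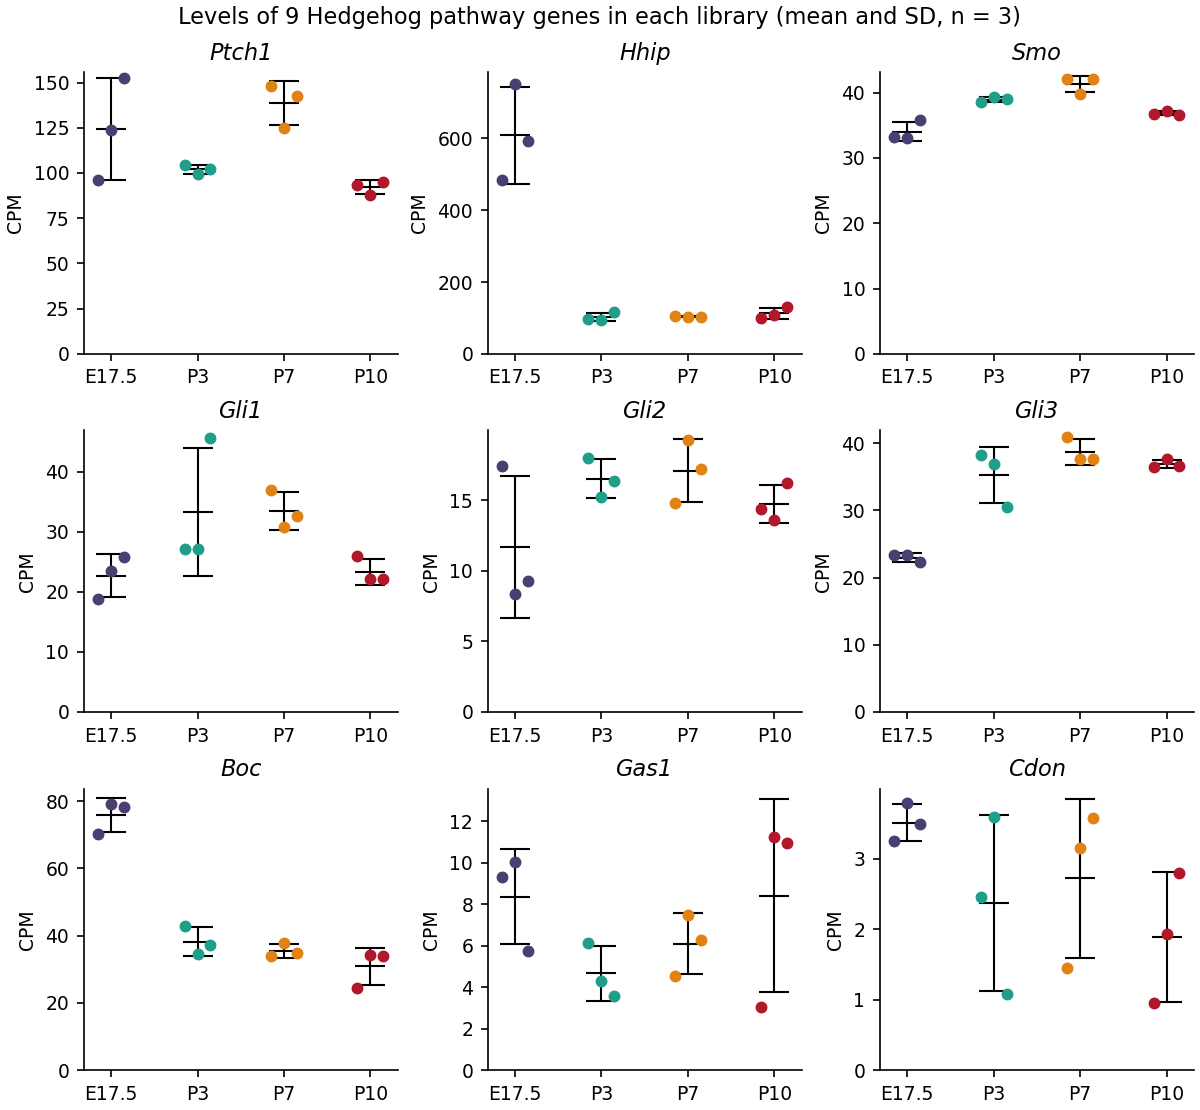
Level of each member in CPM (vertical axis, from 0) in the 3 libraries of each stage (horizontal axis), with black bars for the mean and SD. Hhip drops from 483 to 751 CPM at E17.5 to at most 130 CPM after birth, Boc drops and Gli3 is higher after birth, and Ptch1 is highest in the P7 stage mean.

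Smo, the transducer that PTCH1 restrains (chromosome 6, 29735503 to 29761365, plus strand), moved least. Levels of Smo were 33.2, 33.1 and 35.7 CPM before birth and 38.5, 39.2 and 39.0 CPM at P3. At P7 they were 42.1, 39.8 and 42.0 CPM, and at P10 they were 36.8, 37.1 and 36.6 CPM. The 4 stages did not overlap, in the order P7, P3, P10 and E17.5 from high to low, yet the highest stage mean was only 1.21 times the lowest. Smo rose from E17.5 to P7 (log2 fold change 0.28, SE 0.07, edgeR adjusted p = 0.0123). That call ended without P7 replicate 1 or 3 and with only the libraries compared (adjusted p up to 0.0592). Between E17.5 and P3 it had 0.19 (SE 0.07, adjusted p = 0.0592), which passed with upper quartile scaling (adjusted p = 0.0464) and when either E17.5 replicate 3 or P10 replicate 1 was left out (lowest 0.0308). Over the 4 stages Smo passed (edgeR adjusted p = 0.0373), but not without any one of 8 libraries (all but E17.5 replicate 3, P3 replicates 2 and 3 and P10 replicate 1, adjusted p up to 0.114). A pseudogene on the same strand, Gm13717, overlaps Smo and reached 220 estimated counts in a library, so some reads may be split between them.

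The ratio of members within a library needs no scaling between libraries, and 5 ratios were tested with an exact permutation test over the 12 libraries of the difference among stages. Per length, Hhip stood at 5.03, 6.06 and 3.89 times Ptch1 in the E17.5 libraries. At P3 the ratio was 0.941, 0.934 and 1.13, at P7 it was 0.710, 0.829 and 0.715, and at P10 it was 1.06, 1.25 and 1.36. Hhip thus went from several times the level of Ptch1 to about its level, and the change was unequal (exact permutation p = 0.00013, adjusted over 5 ratios p = 0.000649). The smallest p that the assignments allow is 6.49e-05. The ratio of Ptch1 to Smo, receptor to transducer, had geometric means of 3.59, 2.62, 3.34 and 2.50 from E17.5 to P10 (exact permutation p = 0.0110, adjusted p = 0.0137). All P7 libraries were above all P3 and P10 libraries in that ratio, while the E17.5 libraries, at 2.89, 3.74 and 4.26, spanned the P7 values.

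Gli1 is both a transcriptional activator of the pathway and one of its direct targets (chromosome 10, 127329882 to 127341974, minus strand). Its levels were 18.8, 23.4 and 25.9 CPM at E17.5. At P3 they were 27.2, 27.1 and 45.5 CPM, with replicate 3 well above the other libraries. At P7 they were 36.9, 30.8 and 32.6 CPM, and at P10 they were 25.9, 22.1 and 22.1 CPM. All P3 and P7 libraries were above all E17.5 and P10 libraries, and E17.5 and P10 overlapped. These log2 differences did not pass in edgeR. P3 against E17.5 gave 0.55 (SE 0.20, adjusted p = 0.0690), P7 against E17.5 gave 0.56 (SE 0.20, adjusted p = 0.0650), and P10 against P7 gave -0.52 (SE 0.20, adjusted p = 0.177). Over the 4 stages adjusted p was 0.0672, and 0.0330 in DESeq2. The difference to P7 passed with upper quartile scaling (adjusted p = 0.0379), with only the libraries compared (0.0390) and without P3 replicate 3 (0.0132). Without P3 replicate 2 the difference from E17.5 to P3 passed at 0.70 (adjusted p = 0.0486), and without P3 replicate 3 it was 0.26 (adjusted p = 0.241); the size of the difference rests on that library. The summed level of 6 proliferation markers was also highest at P3 and P7, with stage values of 58.4 ± 15.6, 273 ± 10.3, 257 ± 3.03 and 85.4 ± 30.2 CPM (SD, n = 3), and its part in the Gli1 pattern was not tested.

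The ratio of Gli1 to Hhip, both readouts of the pathway, rose across birth. From E17.5 to P3 Hhip fell, but Gli1 did not pass (log2 difference 0.55, edgeR adjusted p = 0.0690). The ratio therefore does not show a rise of Gli1 by itself. Gli1 was 0.0389, 0.0313 and 0.0436 of the Hhip level in the E17.5 libraries and 0.277, 0.292 and 0.394 at P3. At P7 the ratio was 0.352, 0.297 and 0.320 and at P10 it was 0.261, 0.202 and 0.170. The ratio differed among stages (exact permutation p = 0.000649, adjusted p = 0.00162). Gli1 against Ptch1 differed too (exact permutation p = 0.00175, adjusted p = 0.00292). That ratio was lowest at E17.5, at 0.195, 0.189 and 0.170, and the lowest later library was at 0.229.

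**Figure D2:**
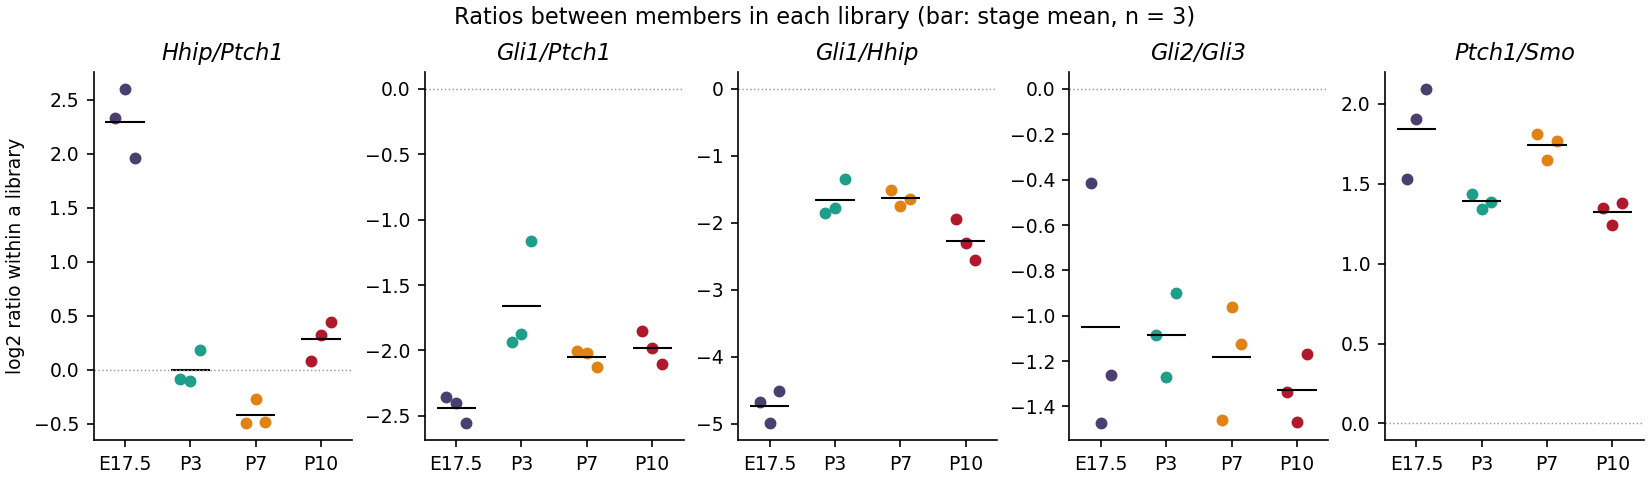
Log2 ratio between pairs of members within each library (vertical axis) at each stage (horizontal axis), with a bar for the stage mean of 3 libraries. Hhip/Ptch1 drops from a mean of 2.30 at E17.5 to about 0 at P3, Gli1/Hhip climbs from -4.73 to -1.66, and Gli2/Gli3 overlaps at all stages.

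Gli3, the main repressor of the pathway when ligand is absent (chromosome 13, 15463235 to 15730026, plus strand), rose across birth. Gli3 stood at 23.3, 23.4 and 22.3 CPM in E17.5 libraries and 38.3, 36.9 and 30.5 CPM at P3. At P7 they were 41.0, 37.6 and 37.7 CPM, and at P10 they were 36.5, 37.7 and 36.7 CPM. The E17.5 libraries were below all others, and the postnatal stages overlapped. Gli3 rose by a log2 fold change of 0.62 to P3 (SE 0.09, edgeR adjusted p = 0.00101), 0.75 to P7 (SE 0.09, adjusted p = 0.000303) and 0.69 to P10 (SE 0.09, adjusted p = 0.000607), all from E17.5. These 3 calls share the E17.5 libraries.

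Gli2, a main activator that can also be processed into a repressor (chromosome 1, 118834132 to 119053619, minus strand), gave no call with all libraries. It stood at 17.46, 8.37 and 9.28 CPM in E17.5 replicates 1, 2 and 3. At P3 it was 18.0, 15.3 and 16.4 CPM, at P7 14.8, 19.3 and 17.2 CPM, and at P10 14.4, 13.6 and 16.3 CPM. The E17.5 replicate 1 value lay among the postnatal ones and the other E17.5 values lay below all of them. From E17.5 to P3 the log2 difference was 0.50 (SE 0.24, edgeR adjusted p = 0.161). Without E17.5 replicate 1 it was 0.90 (adjusted p = 0.00262), and the differences to P7 and P10 passed as well, at 0.95 (adjusted p = 0.00187) and 0.74 (adjusted p = 0.00831). This was the library with the high alveolar fibroblast markers: Tcf21 stood at 359 CPM there and at 96.2 and 93.6 CPM in E17.5 replicates 2 and 3, and Limch1 at 610, 122 and 77.3 CPM. Of the 8 alveolar fibroblast markers none was under 1 CPM in all libraries, and their summed level was 231 to 1366 CPM in E17.5 libraries, 316 to 445 in those of P3, 51.6 to 117 in those of P7 and 57.1 to 94.4 in those of P10. Their part in the Gli2 values was not tested. With all libraries, the ratio of Gli2 to Gli3 showed no difference among stages (exact permutation p = 0.782, adjusted p = 0.782), with geometric means of 0.483, 0.471, 0.440 and 0.399. The E17.5 ratios were 0.750 in replicate 1 and 0.360 and 0.418 in replicates 2 and 3, so the E17.5 mean was raised by replicate 1. The test of this ratio without that library is not given.

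The 3 co-receptor genes differed in level and in course. Boc was the most abundant (chromosome 16, 44485049 to 44558897, minus strand), at 70.1, 79.2 and 78.4 CPM at E17.5. It was 42.9, 34.7 and 37.2 CPM at P3, 33.9, 37.9 and 34.9 CPM at P7, and 24.4, 34.2 and 34.1 CPM at P10. Every postnatal library was below every E17.5 library, and the 3 P10 libraries were below the 3 of P3. Boc fell by 0.99 on the log2 scale from E17.5 to P3 (log2 fold change -0.99, SE 0.14, edgeR adjusted p = 0.000638) and stood at -1.30 at P10 against E17.5 (SE 0.14, adjusted p = 0.000119). From P3 to P10 the log2 difference was -0.31 (SE 0.14, adjusted p = 0.142).

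Gas1, which encodes a membrane-tethered co-receptor (chromosome 13, 60174405 to 60177365, minus strand), was low and scattered. Before birth it had 9.31, 10.02 and 5.74 CPM, and then 6.14, 4.27 and 3.58 CPM at P3 and 4.53, 7.49 and 6.26 CPM at P7. At P10 it was 3.03 CPM in replicate 1, the lowest of all 12 libraries, and 11.3 and 10.9 CPM in replicates 2 and 3, the highest. No comparison of Gas1 passed with all libraries. Without P10 replicate 1 the difference from P3 to P10 was 1.22 (edgeR adjusted p = 0.0240), against 0.85 (SE 0.44, adjusted p = 0.213) with it, and the test over the 4 stages passed (adjusted p = 0.0444, against 0.343). Cdon, the third co-receptor gene (chromosome 9, 35421128 to 35507652, plus strand), was the lowest member, with 16 to 68 estimated counts per library. Its values were 3.26, 3.80 and 3.49 CPM in E17.5 libraries, and between 0.950 and 3.59 CPM in the postnatal libraries, where replicates of a stage differed up to several times. All P10 libraries were below all E17.5 libraries, but the log2 difference of -0.88 had an SE of 0.49 (adjusted p = 0.248). At this level and spread a change of Cdon or Gas1 of that size could not be told from the scatter.

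**Figure D3:**
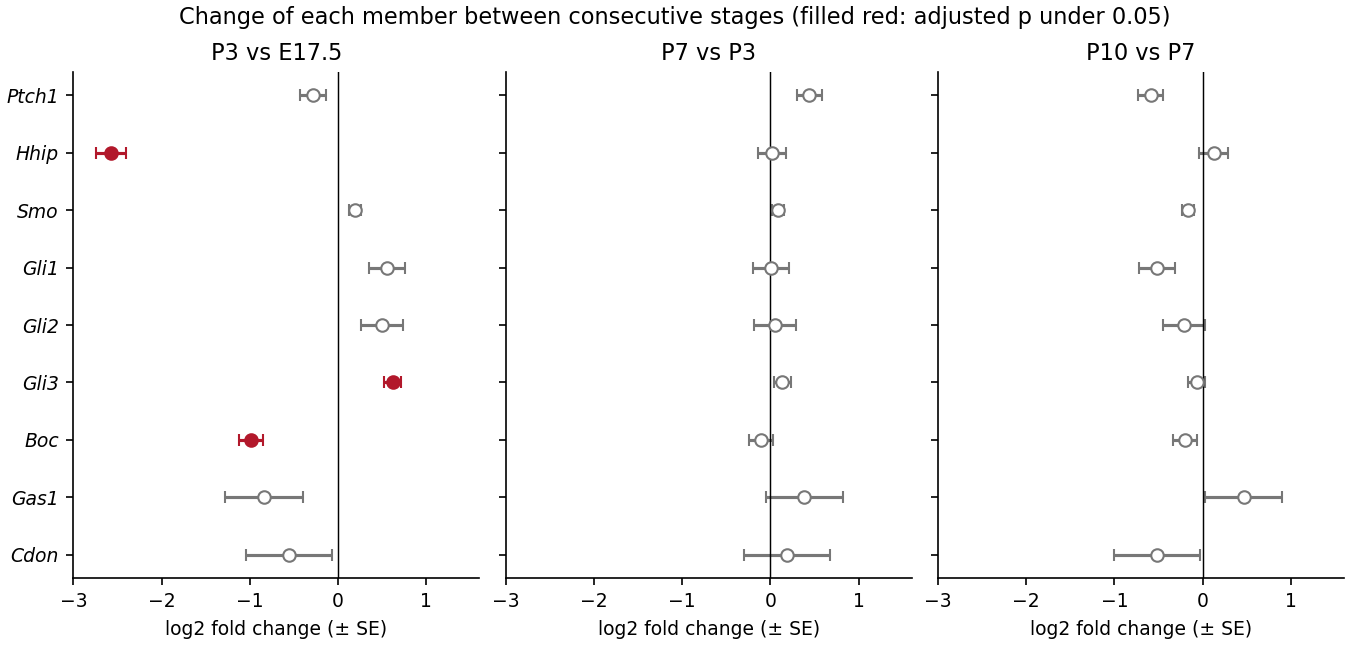
Log2 fold change of each member between consecutive stages (horizontal axis) with its SE, one row per member, filled red where edgeR's adjusted p was under 0.05. From E17.5 to P3, Hhip at -2.57, Boc at -0.99 and Gli3 at 0.62 passed, and in the later steps all 9 members are open circles.

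Counted over the members, 3 of 9 passed in edgeR from E17.5 to P3, 2 lower (Hhip and Boc) and 1 higher (Gli3), where 25.1% of all tested genes passed. The members' median log2 fold change was -0.28, against -0.05 for all tested genes. The libraries of both stages did not overlap for 5 members, 3 higher (Gli1, Gli3 and Smo) and 2 lower (Hhip and Boc), where 38.9% of all tested genes did not overlap. Without E17.5 replicate 1 the count was 5, with Ptch1 and Gli2 added. From E17.5 to P7, 4 members passed (Hhip, Boc, Gli3 and Smo) where 25.4% of genes passed. From E17.5 to P10, 3 passed (Hhip, Boc and Gli3) where 18.3% of genes passed, and 5 without E17.5 replicate 1. Over the 4 stages 5 of 9 differed (Hhip, Ptch1, Gli3, Smo and Boc), where 32.1% of genes did. The count was 3 without any one of 6 libraries, namely E17.5 replicate 2, P3 replicate 1, P7 replicates 1 and 3 and P10 replicates 2 and 3. The shares of all genes in this paragraph belong to the fit with all 12 libraries. Shares without a library are not given, so the member counts without a library cannot be read against all genes.

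After P3 no member passed in edgeR with all libraries, and between consecutive stages few of all tested genes did. From P3 to P7, 0 of 9 members passed in edgeR, where 0.00594% of genes passed, so the 0 says little about the members. In DESeq2 and limma-voom 0 of 9 passed as well, and more genes passed in those fits than in edgeR. At an unadjusted p under 0.05, as 14.3% of genes had, there was 1 member, Ptch1, with a log2 difference of 0.44 (SE 0.14, adjusted p = 0.227). From P7 to P10, 0 passed in edgeR and 1, Ptch1, in both DESeq2 and limma-voom, where 3.64% of genes passed in edgeR. At an unadjusted p under 0.05, as 20.2% of genes had, there were 3, Ptch1, Gli1 and Smo, and the estimates of 7 of 9 members were below 0 (median -0.20, against 0.01 for all genes). From P3 to P10, 0 passed in edgeR, DESeq2 or limma-voom, where 17.3% of genes passed in edgeR, and 2 members, Gli1 and Boc, had an unadjusted p under 0.05, as did 32.1% of genes. The P10 libraries did not overlap those of P3 for 4 members, all lower (Ptch1, Gli1, Smo and Boc), where 37.3% of genes did not overlap in either direction.

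Hhip made up most of the summed level of the 9 members before birth and a minor part after. Its share of the sum was 66.4 ± 4.09% in E17.5 libraries (SD, n = 3). After birth the share was 27.3 ± 1.95%, then 24.8 ± 0.67% in P7 libraries and 31.4 ± 2.11% in those of P10. The sum of all 9 went from 913 ± 151 CPM at E17.5 to 374 ± 18.7, 417 ± 11.7 and 358 ± 25.0 CPM. Without Hhip the sum of the other 8 was 303 ± 30.9, 271 ± 9.27, 314 ± 11.3 and 245 ± 9.59 CPM. The bars of the summed level show how much of the perinatal drop was Hhip itself.

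**Figure D4:**
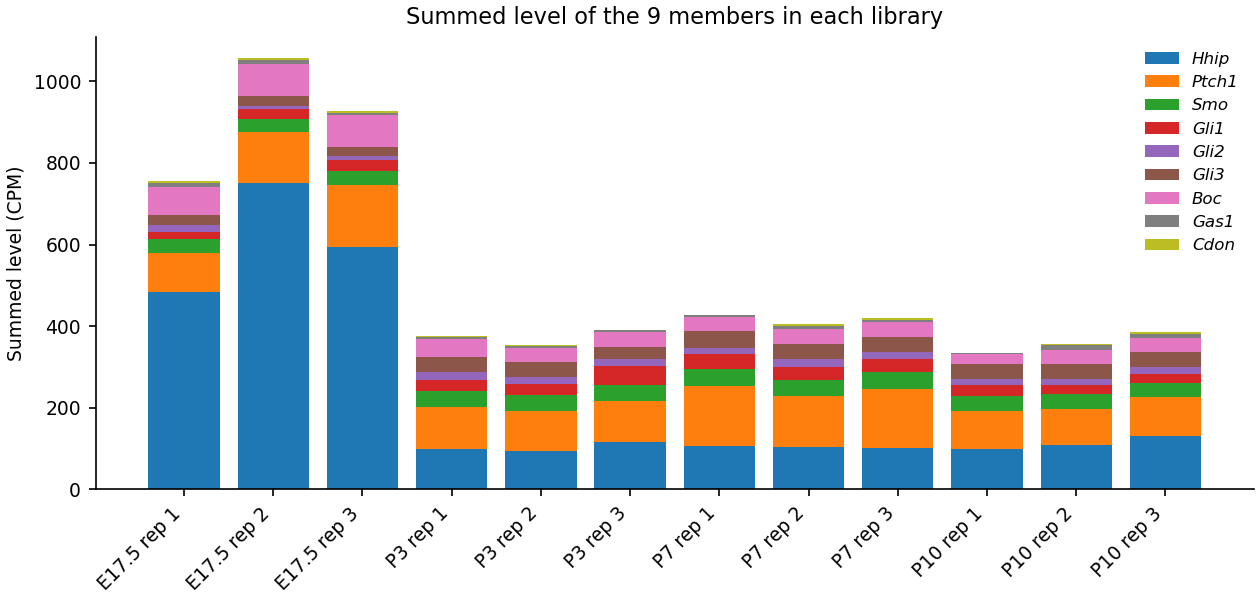
Summed level of the 9 members in CPM (vertical axis, from 0) in each of the 12 libraries (horizontal axis), stacked by gene. The E17.5 bars reach 755 to 1057 CPM and are mostly Hhip, and the postnatal bars lie between 335 and 428 CPM.

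The genes whose course was most like that of a member were found by the root mean square difference of log2(CPM + 0.5), centred on each gene's mean over the 12 libraries, among 6765 tested genes with a mean of at least 10 CPM. For Hhip they were Cspg4 (0.166), Bnip3 (0.175), Cacna1g (0.209) and Abat (0.225). Cspg4, a pericyte marker, had stage means of 31.7, 5.12, 4.95 and 5.32 CPM, and Bnip3, a gene known for its response to low oxygen, had 168, 30.7, 26.5 and 30.5 CPM. The most Hhip-like member was Boc, in place 117 with a difference of 0.638, while Ptch1 was in place 2442. Of 8 markers of pericytes and vascular smooth muscle 4 fell and 0 rose from E17.5 to P3, where 25.1% of all tested genes passed. The summed level of these 8 markers was 224 to 351 CPM before birth, then 146 to 160, 156 to 173 and 214 to 241 CPM in the 3 postnatal stages, and none was under 1 CPM in all libraries. The markers in it went separate ways. From P7 to P10 Rgs5 had stage means of 27.8 and 68.2 CPM and Pdgfrb 55.0 and 84.4 CPM. Cspg4, Notch3 and Lamc3 fell with Hhip from E17.5 to P3 and stayed low like it, at 4.95 and 5.32, 4.76 and 4.72, and 2.74 and 3.74 CPM in P7 and P10 libraries. Of 6 airway smooth muscle markers 2 rose and 2 fell from E17.5 to P3, and their sum was 247 to 444, 747 to 755, 421 to 676 and 245 to 529 CPM in the 4 stages. Erythroid markers were also lower after birth, with 4 of 5 tested falling from E17.5 to P3 and sums of 117 to 179, 31.8 to 53.6, 12.5 to 44.1 and 27.0 to 53.6 CPM. Mesothelial markers, 1 of 2 tested falling, summed to 8.83 to 12.7, 2.32 to 4.46, 1.54 to 3.49 and 0.59 to 3.25 CPM, with Wt1, Upk3b and Lrrn4 under 1 CPM in all libraries. The share of 25.1% of all tested genes stands beside each of these marker counts from E17.5 to P3. The part of any of these cell types in the fall of Hhip was not tested. For Ptch1 the nearest genes were Fto (0.151), Kat5 (0.152), Fam118a (0.158) and Cant1 (0.164), and for Gli1 they were Evl (0.146), Aurkaip1 (0.149), Gtf3c4 (0.157) and Sf3a3 (0.163).

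The ligands themselves were near the detection limit in these cells. Shh had 1 to 12 estimated counts per library and Ihh 0 to 4, and both were too low to test. Dhh had 0 to 3 estimated counts in E17.5 libraries, 5 to 11 in those of P3, 7 to 21 in those of P7 and 10 to 11 in those of P10. It passed against E17.5 at P7 (edgeR adjusted p = 0.0156) and at P10 (adjusted p = 0.0445), but limma-voom gave adjusted p = 0.125 and 0.208. The call at P7 also ended without P7 replicate 2 or 3 (adjusted p up to 0.0603), and that at P10 ended under 15 alternatives, with adjusted p up to 0.113 in edgeR. Epithelial RNA was present beside these low ligand values. The summed level of 9 alveolar epithelial markers ranged from 121 to 162 CPM at E17.5 and 159 to 239 at P3. At P7 it ranged from 112 to 153 CPM and at P10 from 55.4 to 196, mostly Sftpc, with none of the 9 under 1 CPM in all libraries. From E17.5 to P3, 1 of 9 (Sftpd) rose, and from E17.5 to P7 and to P10 Sftpd rose while Hopx and Nkx2-1 fell. In these comparisons 25.1%, 25.4% and 18.3% of all tested genes passed. Of 6 airway epithelial markers 4 were tested, and Scgb1a1 and Tppp3 rose from E17.5 to each postnatal stage. The sum of that list was 14.95 to 25.9 CPM before birth, then 85.1 to 137, 122 to 180 and 71.4 to 254 CPM, with Foxj1 and Sox2 under 1 CPM in all libraries. As stage means it was mostly Tppp3, at 12.6, 78.9, 101 and 96.3 CPM of 19.1, 113, 149 and 177 CPM. Scgb3a2 and Cyp2f2 did not pass from E17.5 to any postnatal stage. The part of either epithelium in the ligand values was not tested.

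Genes that process and release the ligand changed in opposite directions. Of 6 tested genes of the ligand and release list, 1 rose and 1 fell from E17.5 to P3, where 25.1% of all tested genes passed. From E17.5 to P10, 3 rose and 2 fell (Dhh among those that rose), where 18.3% passed. Scube3, one of the secreted proteins that help release Hedgehog ligands, had stage means of 10.7, 4.31, 2.74 and 1.61 CPM and fell by 2.73 on the log2 scale from E17.5 to P10 (SE 0.28, edgeR adjusted p = 0.000103). Scube2 of the same family stood at 14.2, 6.84, 2.51 and 2.46 CPM, with E17.5 replicate 1 at 27.2 CPM and the remaining E17.5 libraries at 9.93 and 5.53. It had a log2 fold change of -2.52 from E17.5 to P10 (SE 0.55, adjusted p = 0.0102), which was -1.64 without E17.5 replicate 1 (adjusted p = 0.0232), and adjusted p was 0.0747 with only the libraries compared. Scube1 went the other way, from 16.5 ± 4.20 CPM at E17.5 to 31.3 ± 4.15 at P10 (0.93, SE 0.18, adjusted p = 0.00562). Disp1, a transporter that exports ligand, rose from 3.998 to 7.75 CPM between E17.5 and P3 (0.95, SE 0.20, adjusted p = 0.00587).

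Most genes of the cilium and of the steps from SMO to GLI gave no call. Of the 20 reported here, 4 fell from E17.5 to P3 in edgeR, where 25.1% of all genes passed. Among genes outside the naming rule, chosen after their values were seen, Sufu, which encodes the GLI-binding inhibitor, stood at 24.9, 24.5, 23.0 and 20.3 CPM and Kif7, which encodes a ciliary kinesin of the pathway, at 10.7, 11.7, 11.9 and 11.5 CPM. Arl13b, a small GTPase of the ciliary membrane, fell from 40.7 to 16.8 CPM between E17.5 and P7 (-1.28, SE 0.18, edgeR adjusted p = 0.000572). Its rise from P7 to P10, to 29.3 ± 8.53 CPM, passed with all libraries (0.80, adjusted p = 0.0371) but ended under 11 alternatives. Ift88 and BC030336 also fell across birth, and so did Ift172, which is outside the naming rule and was chosen after its values were seen (53.0 to 35.2 CPM, adjusted p = 0.0233). Ift88 and Ift172 encode parts of the transport machinery of the cilium. The call of Ift172 ended without E17.5 replicate 2 or 3 or P3 replicate 2 or 3 (adjusted p up to 0.0817). The call of Ift88 (10.8 to 7.66 CPM, adjusted p = 0.0186) ended without E17.5 replicate 3, P3 replicate 1 or P3 replicate 3 and with only the libraries compared (adjusted p up to 0.0766). BC030336 was entered as an older symbol of Mosmo, a pairing that the reference tables used here do not give, and its call from E17.5 to P3 ended without E17.5 replicate 1, P3 replicate 1 or P3 replicate 3 and with only the libraries compared (adjusted p up to 0.0964).

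Among 13 genes of GLI phosphorylation and turnover, 1 rose and 2 fell from E17.5 to P3, where 25.1% of all tested genes passed. Csnk1d, a casein kinase 1 gene, fell from 95.4 to 67.1 CPM (-0.51, SE 0.09, edgeR adjusted p = 0.00185). It was back at 83.3 CPM in P10 libraries, a rise of 0.37 from P7 (adjusted p = 0.0443) and 0.31 from P3 (adjusted p = 0.0311), calls that ended under 13 and 10 alternatives. Prkaca, a catalytic subunit of protein kinase A, which phosphorylates GLI proteins, stood at 34.7, 41.8, 37.8 and 30.3 CPM and fell by 0.47 on the log2 scale from P3 to P10 (SE 0.08, adjusted p = 0.00399). Its rise from E17.5 to P3 (0.27, adjusted p = 0.0261) ended under 5 alternatives (adjusted p up to 0.0902). Spop, part of a ubiquitin ligase that acts on GLI proteins, went from 60.1 CPM before birth to 49.0 CPM in P3 libraries (adjusted p = 0.0389), a call that ended under 15 alternatives. Ulk3, a kinase of GLI proteins, rose from 1.28 to 2.66 CPM between P3 and P10 (adjusted p = 0.0146), a call that ended without P3 replicate 1, P10 replicate 2 or P10 replicate 3 (adjusted p up to 0.0524).

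Among 9 tested genes known as Hedgehog targets in mesenchyme, 3 rose and 1 fell from E17.5 to P3, where 25.1% of all tested genes passed, with a median log2 fold change of 0.16 against -0.05 for all genes. From E17.5 to P10, 3 rose and 2 fell, where 18.3% passed. Ccnd1 and Ccnd2, which encode D-type cyclins that drive entry into the cell cycle, rose from 1.80 ± 0.39 to 24.5 ± 4.48 CPM (3.74, SE 0.22, edgeR adjusted p = 8.11e-06) and from 19.7 ± 3.39 to 84.2 ± 7.05 CPM (2.10, SE 0.14, adjusted p = 1.25e-05). Both stayed at that level at P10, at 27.0 and 89.5 CPM, when the summed proliferation markers were at 85.4 CPM, down from 257 at P7. The part of proliferation in the levels of Ccnd1 and Ccnd2 was not tested. Bmp4, a growth factor gene, rose from 31.3 to 63.7 CPM (1.02, SE 0.20, adjusted p = 0.00424). Bcl2, a survival gene, fell from 28.4 to 16.7 CPM (-0.77, SE 0.13, adjusted p = 0.00174). Foxf1 and Foxf2, also named after their values were seen, are forkhead factors of lung mesenchyme that depend on Hedgehog input. They did not pass in any comparison of 2 stages. Foxf1 stood at 169 ± 42.6, 155 ± 5.40, 168 ± 8.03 and 134 ± 13.7 CPM, and Foxf2 at 95.0, 106, 129 and 98.1 CPM. Foxf2 had its highest mean at P7, and its P7 libraries did not overlap those of P10 but overlapped those of P3. The highest means of Ptch1, Gli1, Gli2, Gli3 and Smo were also at P7. Only for Smo were the P7 libraries clear of the next highest stage. Gli1 was level between P3 and P7 (log2 difference 0.007, edgeR adjusted p = 0.994), so no shared peak at P7 is shown. A further forkhead gene of the list, Foxl1, also outside the naming rule, had stage means of 7.48, 4.62, 4.46 and 1.92 CPM and fell from E17.5 to P10 (-1.96, SE 0.40, edgeR adjusted p = 0.00726). Its call over the 4 stages (adjusted p = 0.0218) ended without P10 replicate 2 or 3 (adjusted p up to 0.0803). From P3 to P7 and from P7 to P10, 0 of these 9 targets passed in edgeR, where 0.00594% and 3.64% of all tested genes passed. At an unadjusted p under 0.05, as 14.3% and 20.2% of genes had, there were 0 and 2 targets.

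**Figure D5:**
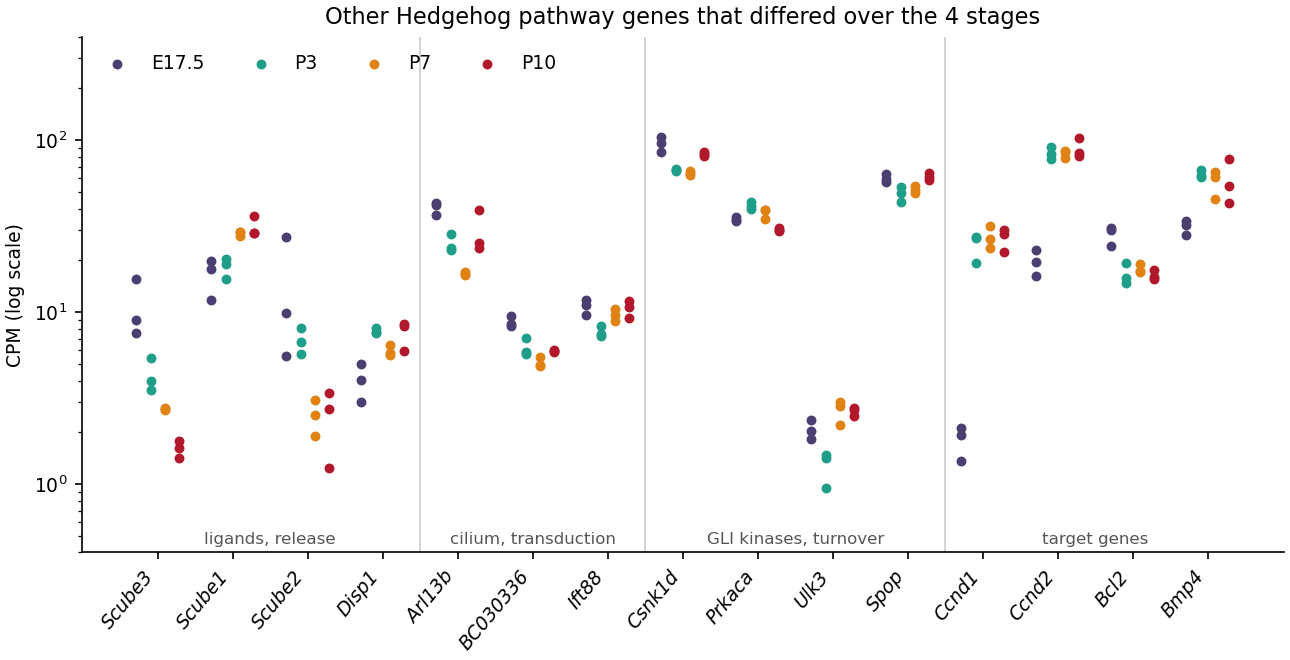
Levels in CPM (vertical axis, log scale) of 15 other pathway genes with the lowest p over the 4 stages, up to 4 from each of 4 lists, with 1 point per library coloured by stage. The stage means of Scube3 and Scube2 step down with age, those of Scube1 step up, and Ccnd1 and Ccnd2 are higher in every postnatal library than at E17.5.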

How the data were processed

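Bulk RNA-seq was analysed from 12 libraries, 3 per stage. The authors deposited 1 table of estimated counts per gene, already whole numbers, with GRCm38 as the build per the submitters' processing notes. For the aligner, quantifier, annotation and strand setting, nothing is stated (not given in the sources used here). Each of the 12 columns was matched to a sample by its description in the labels.

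Genes were filtered with filterByExpr by stage (minimum count 10). TMM factors and edgeR 4.0.16 (R 4.3.3; quasi-likelihood test, stage as the only term, all 12 libraries) gave log2 fold changes, and p-values were adjusted by Benjamini-Hochberg over 16827 genes and called under 0.05. Standard errors are the absolute log2 fold change divided by the square root of F. The 5 ratios of members used a pseudocount of 0.5. Alternatives were other scaling factors, no filter, DESeq2 1.42.0, limma-voom (limma 3.58.1), a replicate block, only the libraries compared, and leaving out each library. The fits were tested on simulated data. Gene positions follow GENCODE M21.

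The members, 4 pathway lists, 12 marker lists and tests were chosen with earlier results of these data known. All 9 members are named. Of each pathway list, up to 4 genes with the lowest p over the 4 stages among those passing are named, together with Shh, Ihh and Dhh, and the 4 genes most like Hhip, Ptch1 and Gli1. One gene of the pathway lists and 1 of the marker lists are not reported here. The marker lists not described beside a result were those of endothelium (summed level 18.2 to 41.3 CPM as stage means), immune cells (15.0 to 21.6) and adventitial fibroblasts (119 to 401), and the sum of the sorted-cell list was 3037 to 4592.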

Additional observations from a re-analysis of the deposited data

How the results depend on the processing

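Of the 10 calls of members between 2 stages, 9 were kept under all alternatives run, and the exception was Smo from E17.5 to P7. Over 63 member results, 1120 values under an alternative kept direction and side of the threshold, 24 newly passed, 22 no longer passed and 22 changed sign, none of these called. The sign changes were Gas1 from E17.5 to P10 (-0.10 by limma-voom, -0.034 with the replicate block, -0.25 to 0.41 without 1 library) and Gli1 from P3 to P7 (-0.0065 with RLE factors, -0.0057 by DESeq2, -0.12 to 0.30 without 1 library). Without 1 library, the ranges from P3 to P7 were -0.048 to 0.11 for Hhip, -0.057 to 0.12 for Gli2 and -0.15 to 0.62 for Cdon. They were -0.081 to 0.14 for Gli1 from E17.5 to P10, and from P3 to P10 -0.72 to 0.076 for Cdon and -0.029 to 0.13 for Gli3. The cause was not tested.

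Counts of members called ranged without 1 library from 3 to 5 (P3 and P10 against E17.5, and the 4 stages) and from 0 to 1 (P10 against P7 and against P3). The share of all genes in each of those fits is not given beside them. For P10 against P7 the count was 1 by DESeq2, by limma-voom and with only the libraries compared.

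Counts over all genes moved more. For P7 against P3 the 1 gene became 4 with upper quartile factors, 3 with no filter, 476 by DESeq2, 18 by limma-voom, 0 with the replicate block and 9 with only the libraries compared, and 0 to 73 without 1 library. For P10 against P7 the 613 became 307 with no filter, 1346 by DESeq2, 310 with the replicate block and 22 to 790 without 1 library. With only the libraries compared, P3 against E17.5 gave 2767 and P10 against E17.5 gave 1687. Without 1 library the ranges were 2016 to 3113 for P10 against E17.5, 2719 to 4448 for P7 against E17.5 and 1307 to 3053 for P10 against P3.

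Replicate numbers did not pair the libraries: 3 of 18 pairs with the same number correlated over 0.1 (-0.195 to 0.136), and the same number correlated best in 11 of 36 cases. The replicate block ended the call of Smo over the 4 stages (adjusted p = 0.0827), as did no filter (0.0918). With 3 libraries per stage and as few as 16 estimated counts, changes of Cdon were poorly resolved. These values look scaled by transcript length and are not numbers of reads.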
